A study of Mus musculus with 8 samples.

Results

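The urea cycle and ammonia handling genes examined here were the 10 genes Cps1, Otc, Ass1, Asl, Arg1, Nags, Slc25a15, Gls2, Glul and Oat, taken by their symbols from a deposited table of 33212 genes. All 10 were in the table, and all 10 were among the 15291 genes with enough counts to be tested. Liver RNA was sequenced from 4 Nnmt KO mice and 4 control mice, to ask what hepatocyte Nnmt does in diet-induced liver damage. Nnmt KO mice (genotype Nnmt LKO in the labels) were Alb-Cre::Nnmt flox/flox, so that the albumin promoter drove Cre in hepatocytes and the other liver cells kept the gene. Control mice (WT in the labels) were Nnmt flox/flox according to the study's methods. All 8 mice were male, of strain C57BL/6, and had received for 8 weeks the MCD diet, a diet without methionine and choline. Both groups shared the diet and, if the methods hold, the floxed alleles. The age of these mice is not given in the sources used here.

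The urea cycle is the route by which the liver turns toxic ammonia into urea. It starts in the mitochondria of hepatocytes and ends in the cytosol, and ornithine is carried back into the mitochondria for the next turn. It runs mainly in hepatocytes around the portal vein, while a rim of hepatocytes around the central vein binds the ammonia that has escaped into glutamine. Nnmt encodes nicotinamide N-methyltransferase, which spends the methyl group of S-adenosylmethionine, a product of methionine.

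Total counts were between 75020072 and 87934362 per library. Since the columns of the table carry no mouse number, each genotype's libraries are called a to d in column order. Levels are counts scaled to the library total, in CPM, after TMM scaling. The targeted gene, Nnmt, had 57.1 ± 23.1 CPM in Nnmt KO and 139 ± 60.5 CPM in control mice (SD, n = 4 each), and every Nnmt KO library was below every control library. The highest Nnmt KO library (d, 83.0 CPM) and the lowest control library (d, 84.9 CPM) were close. Markers of the labelled tissue were abundant, as 6 hepatocyte genes (Alb, Apoa1, Ttr, Trf, Fgb and Serpina1c) summed to between 76183 and 128365 CPM. Of 6 markers of pancreas, gut and kidney, 3 passed the count filter. Nnmt KO library a stood apart from the other Nnmt KO libraries. Its TMM factor was 1.21 against 0.952 to 0.977 in the others, and its hepatocyte markers summed to 76183 CPM against 112848 to 127659 CPM in the others. The summed markers of cholangiocytes, stellate cells, macrophages and lymphoid cells with neutrophils were highest of all 8 libraries in this one, at 278, 562, 530 and 28.6 CPM. Those of endothelial cells were not, at 158 CPM. They summed to 156 to 177 CPM in the other Nnmt KO libraries and to 128 to 230 CPM in control libraries. In bulk tissue, fewer cells of a type and less RNA per cell cannot be told apart.

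The 10 genes differed widely in level. Per kilobase of exon, Ass1 had the highest level (mean of 1722 CPM per kb over the 8 libraries), at rank 31 of the 15146 tested genes with a position in the annotation. Cps1 followed at 687 CPM per kb, Arg1 at 619, Glul at 493 and Oat at 355. Asl had 112 CPM per kb, Slc25a15 had 87.1, Gls2 had 73.9, Nags had 28.4 and Otc had 15.1. Otc, the least abundant of the 10, was at rank 2483. The libraries of Ass1 and Cps1 did not overlap, and neither did those of Oat and Asl or those of Gls2 and Nags. The gap between Gls2 and Nags was narrow, as the lowest Gls2 library had 41.1 CPM per kb and the highest Nags library had 40.6. The ranges of all other neighbours in this order overlapped. Within the same library, Glul was above Oat and Nags above Otc in all 8 libraries. The order of the remaining neighbours changed between libraries. Levels per kilobase rest on the annotated exon length of each gene, such as 4831 bases for Asl and 2360 bases for Oat. Whether the order and its gaps hold with other transcript lengths was not tested.

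No member passed an adjusted p of 0.05 between Nnmt KO and control mice in edgeR's quasi-likelihood test, where 0.32% of all tested genes did. At an unadjusted p under 0.05 there was 1 member, Slc25a15, which was higher in Nnmt KO. Of all tested genes 12.6% were under that limit, made up of 5.45% higher and 7.13% lower. The libraries of the genotypes did not overlap for 1 member, Oat, against 8.16% of all tested genes, or 4.81% in the same direction. The share of members past each limit was thus close to that of all genes. The log2 fold change was above 0 for 6 members and below 0 for 4, with a median of 0.07 against 0.02 over all tested genes.

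**Figure D1:**
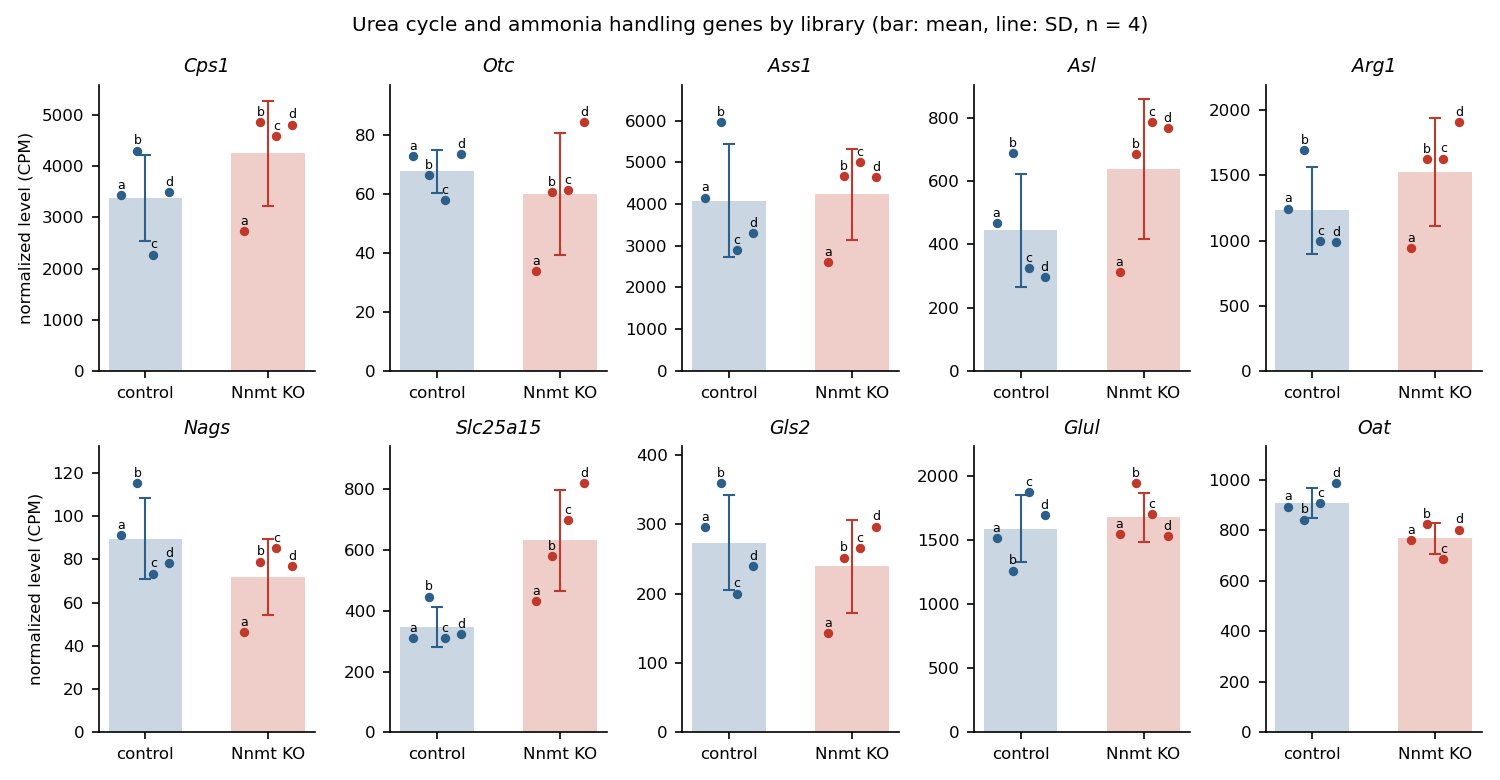
Normalized level in CPM (vertical axes, each from 0) of the 10 genes in the 4 control and 4 Nnmt KO libraries. Points are libraries with their letters, bars are means and lines are SD. Nnmt KO library a was the lowest Nnmt KO library for 8 of the 10 genes, and control library b was the highest control library for 7. The genotypes did not overlap for Oat. That separation was lost with scaling by library size only or by hepatocyte markers. It was kept with DESeq2's size factors and with TMM without the 50 most abundant genes.

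The enzymes of the cycle itself were not separated by genotype. Cps1 (ENSMUSG00000025991, plus strand of chr1:67123026-67231259, GENCODE's annotation of GRCm38), the carbamoyl phosphate synthetase of the first and rate-limiting step, had 2729, 4869, 4589 and 4817 CPM in Nnmt KO libraries a to d. In control libraries a to d it had 3438, 4305, 2275 and 3502 CPM. Nnmt KO libraries b, c and d were above every control library and library a was below all but control library c, so that the genotypes overlapped. The log2 fold change was 0.33 (standard error 0.23, edgeR adjusted p = 0.598), with a 95% interval from -0.19 to 0.85.

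Otc (chrX:10252305-10321024, plus strand), which joins carbamoyl phosphate to ornithine and so makes citrulline, had 33.9, 60.7, 61.4 and 84.6 CPM in Nnmt KO and 72.9, 66.4, 58.0 and 73.6 CPM in control libraries. The control libraries lay close together and the Nnmt KO libraries spread on both sides of them. It had a log2 fold change of -0.17, with a 95% interval from -0.65 to 0.31.

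Ass1 (chr2:31470207-31520672, plus strand), which joins citrulline to aspartate, had 2611, 4669, 5003 and 4643 CPM in Nnmt KO and 4155, 5971, 2900 and 3311 CPM in control libraries. The highest library was a control and the lowest was Nnmt KO library a. The log2 fold change of 0.05 (95% interval -0.53 to 0.63) was the nearest to 0 of the 10, and it turned to -0.04, -0.08 and -0.04 when Nnmt KO library c, control library c or control library d was left out.

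Asl (chr5:130011258-130029247, minus strand), which splits argininosuccinate into arginine and fumarate, had 313, 687, 788 and 769 CPM in Nnmt KO and 468, 689, 326 and 297 CPM in control libraries. Nnmt KO library a and control library b again lay apart from the rest of their groups. The log2 fold change was 0.52, and its 95% interval (-0.17 to 1.22) was the widest of the 10.

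Arg1 (chr10:24915221-24927484, minus strand), the arginase that releases urea and returns ornithine, had 942, 1624, 1627 and 1910 CPM in Nnmt KO and 1244, 1693, 996 and 990 CPM in control libraries. The same libraries as for Asl were the odd ones. It had a log2 fold change of 0.31 (95% interval -0.21 to 0.83).

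Slc25a15 (ENSMUSG00000031482, chr8:22375551-22398597, minus strand), the carrier that exchanges cytosolic ornithine for mitochondrial citrulline, had the largest difference of the 10 genes. It had 433, 579, 698 and 819 CPM in the Nnmt KO libraries and 310, 447, 311 and 325 CPM in the control libraries, both in the order a to d. All 4 Nnmt KO libraries were above 3 of the control libraries, and the groups overlapped only because control library b (447 CPM) was above Nnmt KO library a (433 CPM). The mean was 632 ± 165 CPM in Nnmt KO and 348 ± 66.0 CPM in control mice (SD, n = 4 each). The log2 fold change was 0.86 (standard error 0.20, 95% interval 0.42 to 1.30), and edgeR's adjusted p was 0.100 (unadjusted 0.00128). DESeq2's Wald test, the study's own tool, gave an adjusted p of 0.00244, where 3.28% of all tested genes were under 0.05, and edgeR without Nnmt KO library a gave a log2 fold change of 1.01 with an adjusted p of 0.0244. Over all 14 alternatives, the log2 fold change stayed between 0.71 and 1.03, the adjusted p ran from 0.00244 to 0.309, and 4 of the 14 were under 0.05.

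Nags (chr11:102145513-102149477, plus strand), which makes the N-acetylglutamate that Cps1 needs for activity, had 46.2, 79.0, 85.2 and 77.0 CPM in Nnmt KO and 91.3, 115, 73.5 and 78.2 CPM in control libraries. Nnmt KO library a was the lowest and control library b the highest. The fitted log2 fold change was -0.32 (95% interval -0.75 to 0.12), the opposite sign to that of Cps1. An antisense gene, Gm11586, shares 698 bases with it but had 20 to 51 counts per library.

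**Figure D2:**
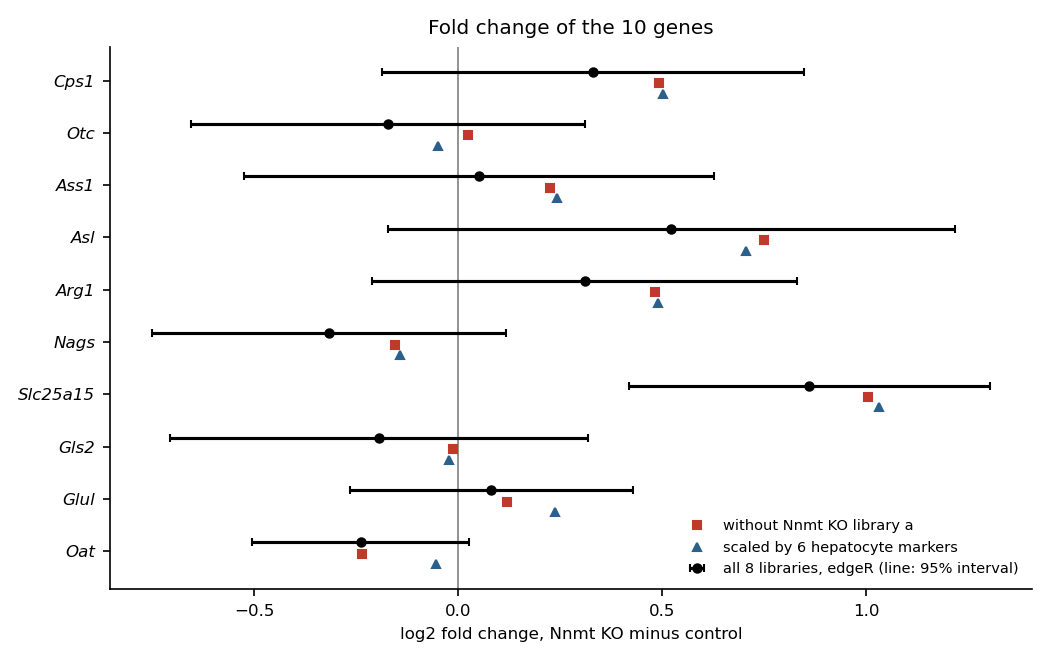
Log2 fold change, Nnmt KO minus control (horizontal axis), of the 10 genes. Black points and lines are edgeR estimates from all 8 libraries with 95% intervals, red squares leave out Nnmt KO library a, and blue triangles scale the libraries by 6 hepatocyte markers, which moves the median of all tested genes to 0.21. The interval of Slc25a15 (0.42 to 1.30) lies above 0, and those of the other 9 genes contain 0.

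Of the genes that release or bind ammonia through glutamine, Gls2 (chr10:128194457-128210004, plus strand), the liver glutaminase, had 143, 252, 266 and 297 CPM in Nnmt KO and 296, 359, 200 and 240 CPM in control libraries. The ranges of the genotypes largely coincided apart from Nnmt KO library a. The fitted log2 fold change was -0.19 (95% interval -0.71 to 0.32). Spryd4, on the opposite strand, shares 97 bases with it and had 2492 to 3606 counts per library, against 13062 to 27194 for Gls2. Whether reads were shared was not tested.

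Glul (chr1:153899944-153909723, plus strand), the glutamine synthetase of the hepatocytes next to the central vein, had 1547, 1946, 1704 and 1534 CPM in Nnmt KO and 1521, 1264, 1878 and 1698 CPM in control libraries. Here Nnmt KO library a was not the lowest of its group, and control library b was the lowest of all 8. Its log2 fold change was 0.08 (95% interval -0.27 to 0.43), and -0.003 without control library b. The genes Mir8114 (same strand) and Teddm2 (opposite strand) overlap it, with 85 to 207 and 19 to 39 counts per library.

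Oat (ENSMUSG00000030934, chr7:132557478-132576398, minus strand), the ornithine aminotransferase that leads ornithine towards glutamate and proline, was the member whose genotypes did not overlap after TMM scaling. Its levels were 761, 823, 686 and 803 CPM in Nnmt KO libraries and 894, 842, 906 and 985 CPM in control libraries. The highest Nnmt KO library (823 CPM) and the lowest control library (842 CPM) were close. The means were 768 ± 60.6 and 907 ± 59.4 CPM (SD, n = 4 each), and the log2 fold change was -0.24 (standard error 0.12, edgeR adjusted p = 0.443). The genotypes overlapped when libraries were scaled by library size only or by 6 hepatocyte markers. They did not overlap with DESeq2's size factors or with TMM without the 50 most abundant genes. With the hepatocyte markers the log2 fold change was -0.06, where the median of all tested genes was 0.21.

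The position of Oat was examined because genes of its stretch of chromosome 7 were low together. Within 10 Mb of Oat, the log2 fold changes of the other 218 tested genes had a median of -0.30, and 61.5% of them had a lower value than Oat. The difference between Oat and that median was 0.06, and it was between 0.01 and 0.13 with each library left out. Over the other 1153 tested genes of the whole chromosome the median was -0.14. For comparison, the 98 tested genes within 10 Mb of Slc25a15 had a median of 0.12, and 96.9% of them had a lower value than Slc25a15. The value of Oat was thus within those of its neighbours and the value of Slc25a15 was at the upper end of its own. Fgfr2, a receptor gene on the same strand, is annotated across the whole span of Oat, which is 18921 bases with its introns and 2360 bases of exon. Whether the 2 genes share exon bases, and so whether reads could be assigned to either, was not tested. Fgfr2 had 2771 to 5549 counts per library.

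**Figure D3:**
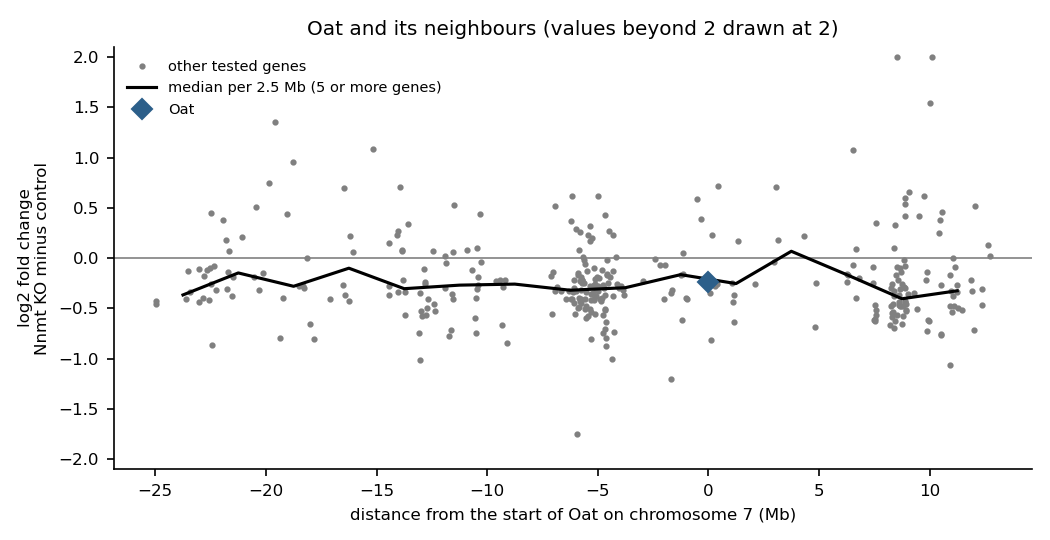
Log2 fold change, Nnmt KO minus control (vertical axis), of tested genes by their distance in Mb from the start of Oat on chromosome 7 (horizontal axis). Grey points are genes, the line is the median of each stretch with enough genes, the diamond is Oat, and values beyond the axis limit are drawn at it. Oat (-0.24) lies close to the median of its neighbours within 10 Mb (-0.30).

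Many of the members had their extremes in the same libraries. Nnmt KO library a had the lowest value of its group for 8 of the 10 genes, the exceptions being Glul and Oat. Control library b had the highest value of its group for 7 genes and the lowest for Glul and Oat. The summed level of the 10 genes was 9558 CPM in Nnmt KO library a against 15508 to 15754 CPM in the other Nnmt KO libraries, and it ran from 9923 CPM (library c) to 15750 CPM (library b) in the control libraries. The TMM factors had the reverse order at these ends, at 1.21 in Nnmt KO library a and 0.876 in control library b. The part of the hepatocyte share or of the scaling in these differences was not tested.

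Without Nnmt KO library a, edgeR gave 4 members an unadjusted p under 0.05, all with positive log2 fold changes, against 5.84% of all tested genes in that direction. They were Slc25a15, Asl (0.75, adjusted p = 0.213), Cps1 (0.49, adjusted p = 0.286) and Arg1 (0.48, adjusted p = 0.294). Library a was the lowest Nnmt KO library for each of these 4 genes, so that leaving it out was bound to raise their fold changes. The counts of this fit follow in part from that choice and are a description. Only Slc25a15 passed an adjusted p of 0.05 there, where 0.963% of all tested genes did in either direction. The libraries of Cps1 and Slc25a15 were then higher in Nnmt KO without overlap and those of Oat lower, 3 of 10 members against 13.5% of all tested genes. Otc had a log2 fold change of 0.02 in that fit, the opposite sign to that with all libraries.

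Ratios between the counts of 2 members in the same library do not depend on how libraries are scaled. Of the 45 pairs of members, 14 (31.1%) had ratios whose Nnmt KO and control libraries did not overlap. The share was 7.85% for the ratios of every tested gene to the 10 members and 20.7% for the ratios between 2 of the other nitrogen genes described below. The pairs share their members and are not independent.

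Slc25a15 took part in 6 of the 14 pairs, those with Otc, Ass1, Arg1, Nags, Gls2 and Oat. There were 7.33 to 10.6 counts of Slc25a15 for each count of Nags in Nnmt KO libraries and 3.39 to 4.23 in control libraries. Against Gls2 its ratio was 2.30 to 3.03 in Nnmt KO and 1.05 to 1.55 in control libraries, and against Arg1 it was 0.357 to 0.459 and 0.249 to 0.328. Against Nags, Gls2 or Arg1, which were themselves lowest in library a, the ratio of library a was within or above the range of the other Nnmt KO libraries. Against Oat it stayed the lowest of its group (0.569 against 0.703 to 1.02), and also against Glul (0.279 against 0.298 to 0.534). The ratios to Cps1, Asl and Glul overlapped between genotypes. Of all tested genes, 0.798% had at least as many non-overlapping ratios to the same 9 genes. Slc25a15 was picked for its difference in these same libraries, so that this share is a description and not a test.

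**Figure D4:**
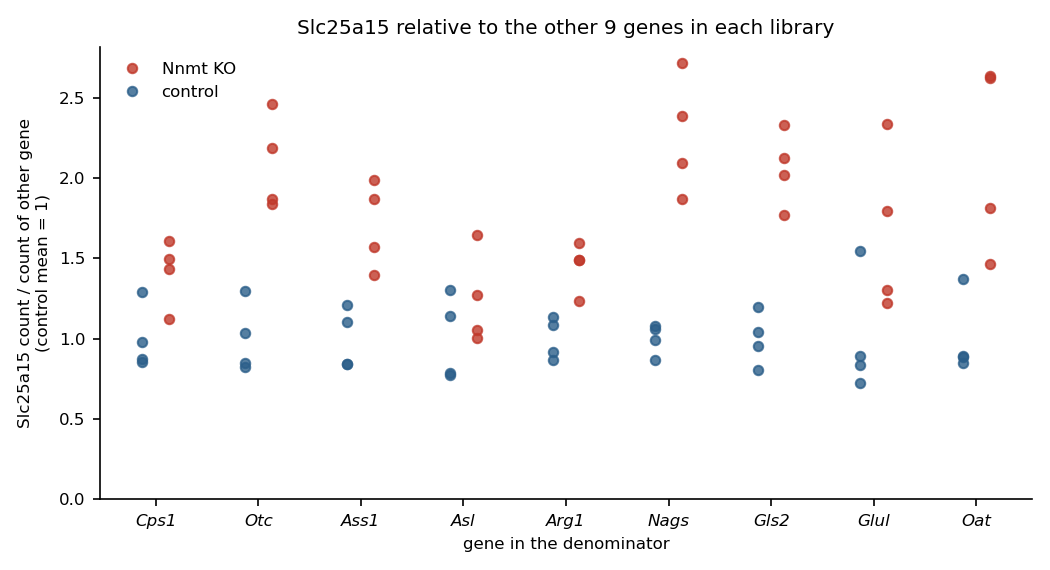
Counts of Slc25a15 divided by the counts of each of the other 9 genes in the same library, with the control mean of each ratio set to 1 (vertical axis, from 0). Blue points are the 4 control and red points the 4 Nnmt KO libraries. The genotypes do not overlap for Otc, Ass1, Arg1, Nags, Gls2 and Oat, and they overlap for Cps1, Asl and Glul.

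Most of the other pairs without overlap set an enzyme of the cycle against Nags or Gls2. Cps1, Asl and Arg1 were higher in Nnmt KO libraries relative to both of them, and Ass1 relative to Nags. Arg1 had 19.1 to 24.8 counts for each count of Nags in Nnmt KO libraries and 12.7 to 14.7 in control libraries. It had 6.12 to 6.59 counts for each count of Gls2 against 4.13 to 4.98. The ratio of Cps1 to Nags, the enzyme and the maker of its activator, was 53.9 to 62.5 in Nnmt KO and 31.0 to 44.8 in control libraries. The ratio of Ass1 to Asl, which catalyse successive steps, was lower in Nnmt KO (6.04 to 8.34) than in control libraries (8.67 to 11.1). No pair with Glul was free of overlap. These ratios were picked for their lack of overlap and are a description.

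The promoters of the member without overlap and of the member with the smallest p are shown, as the 250 bases before the RefSeq transcription start in GRCm38.p6, on the minus strand, 5′ to 3′. Capitals mark CCAAT boxes (CCAAT on either strand) for Oat and GC boxes (GGGCGG on either strand) for Slc25a15, motifs that were chosen after the sequences were seen.
Oat, chr7:132576399-132576648: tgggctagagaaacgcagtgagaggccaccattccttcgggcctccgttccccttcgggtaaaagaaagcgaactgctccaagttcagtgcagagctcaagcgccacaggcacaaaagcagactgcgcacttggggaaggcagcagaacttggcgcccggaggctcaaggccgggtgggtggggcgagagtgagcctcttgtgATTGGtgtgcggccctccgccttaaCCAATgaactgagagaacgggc
Slc25a15, chr8:22398622-22398871: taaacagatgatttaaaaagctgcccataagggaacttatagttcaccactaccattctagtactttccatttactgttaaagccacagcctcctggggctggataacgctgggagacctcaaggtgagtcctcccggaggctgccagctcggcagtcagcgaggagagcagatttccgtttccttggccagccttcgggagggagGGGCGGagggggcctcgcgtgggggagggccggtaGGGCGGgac
The Oat stretch had 60.0% G and C with 2 CCAAT boxes, and the Slc25a15 stretch had 57.6% G and C with 2 GC boxes. A second RefSeq start of Slc25a15 has a window nearby (chr8:22398278-22398527) with 80.4% G and C and 5 GC boxes. CCAAT occurred in 33.8% and the GC box in 32.7% of all 32851 promoter windows, so that both are common. RefSeq windows were matched for 6 of the 10 genes (Ass1, Glul, Nags, Oat, Otc and Slc25a15, the last with 2 windows). The C/EBP-ATF element (TGATGNAA), the C/EBP element (TTGCNNAA) and the CRE half-site (TGACG), searched on both strands, were in 0 of these 7 windows, against 3.45%, 9.56% and 17.8% of all windows.

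Other genes of nitrogen handling were read from lists of carriers, enzymes of ammonia, glutamate, aspartate, arginine and proline, and enzymes of amino acid breakdown. Of 66 such genes in the table, 59 were tested. DESeq2 gave 7 of them an adjusted p under 0.05 (3.28% of all tested genes), and edgeR gave 1 (0.32%). The gene in edgeR's fit was Slc7a2, a carrier that brings arginine, ornithine and lysine into the cell. At an unadjusted p under 0.05 there were 18 of the 59, of which 7 were higher and 11 lower in Nnmt KO mice, so that their share was above that of all tested genes (12.6%). These lists, and those of regulators and zones below, were chosen with earlier results of these data known. Their shares are thus a description and not a test. The median log2 fold change of the 59 genes was -0.14, against 0.02 over all tested genes. When the libraries were scaled by 6 hepatocyte markers instead, the median of all tested genes was 0.21 and that of the 59 genes 0.07. In that fit 13 of the 59 genes were higher and 5 lower at an unadjusted p under 0.05, against 7.27% of all tested genes.

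Slc7a2 rose in Nnmt KO mice. Its 4 Nnmt KO libraries had 461, 488, 568 and 537 CPM, and its 4 control libraries had 296, 325, 260 and 293 CPM. The genotypes were far apart, and Nnmt KO library a was not unusual for this gene beyond being the lowest of its group. The log2 fold change was 0.81 (standard error 0.12, edgeR adjusted p = 0.0399), and it stayed between 0.75 and 0.87 with each library left out. Its adjusted p was under 0.05 in 6 of 14 alternatives and ranged from 1.07e-08 to 0.143. It was above 0.05 without any filter on low counts and whenever a library other than Nnmt KO library a was left out.

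The other 13 carriers tested had no adjusted p under 0.05 in edgeR's test, while Aqp8 (0.00764) and Slc3a2 (0.0286) did by the adjusted p of DESeq2. Those with the smallest unadjusted p were Slc1a2, a glutamate carrier of the central vein hepatocytes (log2 fold change 0.52, adjusted p = 0.200), Aqp8, a water channel that also conducts ammonia (-0.85, adjusted p = 0.105), and Slc3a2, the heavy chain shared by several amino acid carriers (-0.53, adjusted p = 0.142). The genotypes did not overlap for any of these 3 genes, which was so for 8.16% of all tested genes. Aqp8 lies within 10 Mb of Oat on chromosome 7, in the stretch whose median log2 fold change was -0.30.

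An unadjusted p under 0.05 was found for 8 of the 23 other enzymes of nitrogen metabolism, against 12.6% of all tested genes. Of these 8, 3 were above and 5 below the control level. Got1, the cytosolic aspartate aminotransferase, had the largest of these differences (log2 fold change 1.11, edgeR adjusted p = 0.183). It had 602, 1116, 1612 and 1375 CPM in Nnmt KO and 495, 896, 374 and 421 CPM in control libraries, with the same low library a and high library b as the urea cycle enzymes. Car5b, a mitochondrial carbonic anhydrase, was at 0.64. With DESeq2 the adjusted p of Got1 was 0.0159, where 3.28% of all tested genes were under 0.05. Lower values were found for Asns, which makes asparagine (-0.81, adjusted p = 0.116), Pycrl, an enzyme of proline synthesis (-0.38, adjusted p = 0.150), and Prodh2, a dehydrogenase of hydroxyproline breakdown (-0.70, adjusted p = 0.222), of which Asns (0.0111) and Pycrl (0.0412) were under 0.05 by DESeq2's adjusted p.

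Unadjusted p-values under 0.05 were found for 6 of the 22 tested enzymes of amino acid breakdown, against 12.6% of all tested genes. Of these 6, 2 had higher and 4 had lower levels. The higher ones were Tdo2, which opens the ring of tryptophan (0.63), and Aass, which starts the breakdown of lysine (0.66). The 3 lower ones with the smallest p were Amt, of the glycine cleavage system (-0.55), Bcat2, a branched-chain aminotransferase (-0.40), and Ftcd, of histidine breakdown (-0.46). None of the 22 had an adjusted p under 0.05 in edgeR's test. With DESeq2 1 did, Amt (adjusted p = 0.0262), against 3.28% of all tested genes.

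**Figure D5:**
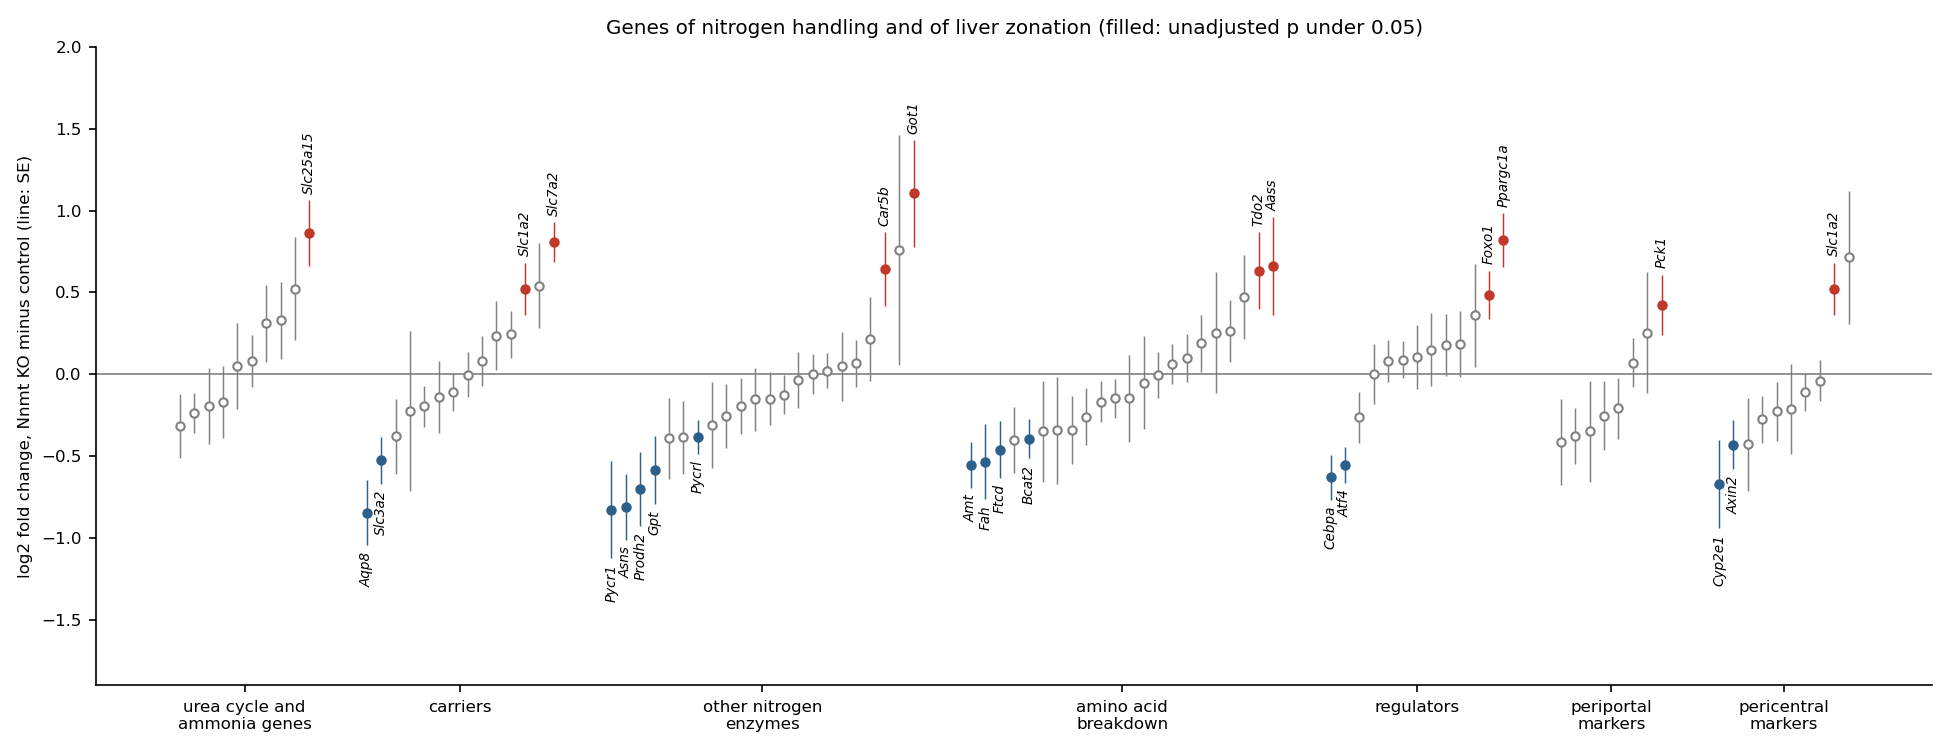
Log2 fold change, Nnmt KO minus control (vertical axis), of tested genes in 7 lists, each sorted by value, with lines for the standard error. Filled points are under 0.05 in edgeR's unadjusted p, red above and blue below 0. Slc7a2, among the carriers, was the only gene shown with an adjusted p under 0.05 by edgeR.

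Regulators that are known to act on urea cycle genes included 13 tested genes, none with an adjusted p under 0.05 in edgeR's test. An unadjusted p under 0.05 was found for 4 of the 13, against 12.6% of all tested genes. Ppargc1a, a coactivator of the fasting response, had 15.4, 18.5, 23.1 and 26.6 CPM in Nnmt KO and 12.9, 12.3, 10.5 and 11.8 CPM in control libraries (log2 fold change 0.82, adjusted p = 0.0711). Foxo1, a transcription factor restrained by insulin, had a log2 fold change of 0.49. Cebpa, a transcription factor of the differentiated hepatocyte, had 153, 187, 166 and 187 CPM in Nnmt KO and 302, 303, 227 and 241 CPM in control libraries (-0.63, adjusted p = 0.0778). Atf4, a transcription factor of amino acid shortage, had 78.3 ± 7.15 CPM in Nnmt KO and 115 ± 9.33 CPM in control mice (SD, n = 4 each; -0.56). The genotypes did not overlap for any of these 4 genes, against 8.16% of all tested genes. DESeq2's adjusted p was under 0.05 for Ppargc1a, Cebpa and Atf4, against 3.28% of all tested genes. Cebpa lies on chromosome 7, as do Prodh2 and Bcat2 named above. The median log2 fold change of the tested genes of that chromosome other than Oat was -0.14. The nearest neighbours of Cebpa, Prodh2 and Bcat2 were not examined.

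The zones of the liver lobule were read from 8 periportal and 10 pericentral markers, none of which had an adjusted p under 0.05 in edgeR's or DESeq2's test. Of the periportal markers 3 had a log2 fold change above 0 and 5 below, with 1 at an unadjusted p under 0.05, Pck1 of gluconeogenesis (0.42). Of the pericentral markers 2 were above 0 and 8 below, with Slc1a2 (0.52), Axin2, a target of Wnt signalling (-0.43), and Cyp2e1, a cytochrome P450 (-0.67), at an unadjusted p under 0.05. Of all tested genes 12.6% were under that limit. Cyp2e1 had 4695, 9023, 9654 and 7679 CPM in Nnmt KO and 13326, 17202, 9599 and 9299 CPM in control libraries, with the same outlying libraries as the urea cycle enzymes. Cyp2e1 also lies within 10 Mb of Oat on chromosome 7, in the stretch whose median log2 fold change was -0.30. The medians of the lists, -0.23 and -0.22, were close to each other, and with hepatocyte scaling the median of the 18 markers was -0.06 against 0.21 over all tested genes. Glul (0.08) and Oat (-0.24), which are both used around the central vein, had values of opposite sign, of which neither passed the test.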

How the data were processed

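RNA was extracted from the liver of 4 Nnmt KO and 4 control mice on the MCD diet. The authors used HISAT2 to align and quantify the reads and deposited gene counts as whole numbers, not normalized. The submitters' processing notes also name StringTie and the build mm10; versions, annotation and strand setting are not given in the sources used here, so reads of overlapping genes could have been assigned to either. The methods name a KAPA kit and the labels a NEBNext kit. The 10 genes and all lists were chosen with earlier results of these data known.

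Groups were taken from the labels. Genes were kept by filterByExpr (minimum count 10), scaled by TMM and tested with edgeR 4.0.16 (quasi-likelihood, R 4.3.3), with Benjamini-Hochberg adjustment over all 15291 tested genes. Standard errors follow from the F statistic. DESeq2 1.42.0 was an alternative, as were other scalings, no filter and each library left out. Libraries of a genotype differed by more than sampling noise, and each was 1 replicate. Positions and exon lengths came from GENCODE's annotation of GRCm38, in which 99.1% of the tested genes were found. The scripts were tested on simulated data. Apart from the 10 genes and Nnmt, genes of the lists are named if they had an adjusted p under 0.05 or, in each list and direction, were among the 3 smallest unadjusted p under 0.05; 1 gene that meets this rule is counted but not reported here. Scaling by hepatocyte markers and the ratios between genes were added after the data were seen. The precision of each value is set by the spread between 4 mice, as 3 counts are a negligible part of a library.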

Additional observations from a re-analysis of the deposited data

Results flagged for a closer look

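In each of 70 groups of 4 libraries, the gap between an end library and its nearest neighbour was divided by the range. In 8 groups this was larger than Dixon's 95% limit, where chance gives about 3.5. The groups share libraries and scaling and are not independent, so that these counts are a description. Several of the 8 concern Nnmt KO library a and are linked, as the TMM factor enters every level and the summed level includes Cps1 and Ass1. Its Cps1 level was 2729 CPM against 4589 to 4869 CPM in the other Nnmt KO libraries, and its Ass1 level was 2611 CPM against 4643 to 5003 CPM. The summed level of the 10 urea cycle and ammonia handling genes was 9558 CPM there against 15508 to 15754 CPM, and its TMM factor was 1.21 against 0.952 to 0.977.

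Control library b was far above the other control libraries for Slc25a15, at 447 CPM against 310 to 325 CPM, and for Aass, at 219 CPM against 135 to 145 CPM. Control library a was above the others for Bcat2, at 23.7 CPM against 19.2 to 19.95 CPM. Nnmt KO library c was above the others for Foxo1, at 47.9 CPM against 36.8 to 37.8 CPM.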

How the results depend on the processing

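The count of members at an adjusted p under 0.05 was 0 in edgeR's fit (0.32% of all tested genes). It was 1, Slc25a15, with DESeq2's Wald test (3.28%), with scaling by library size only (0.144%) and with scaling by 6 hepatocyte markers (0.366%). With each library left out it was 0 to 1, the 1 without Nnmt KO library a (0.963%). At an unadjusted p under 0.05 it was 1, and 2 with DESeq2 (14.2% of all tested genes), 4 with library size only (9.4%), 4 with the hepatocyte markers (7.27%) and 1 to 4 with each library left out (4 without Nnmt KO library a, 13.3%, and 3 without control library b, 10.2%). For the other nitrogen genes the count of 1 at an adjusted p under 0.05 became 7 with DESeq2 (3.28% of all tested genes). It was 0 without a filter (0.0385%) and 2 with the hepatocyte markers (0.366%). With each library left out it was 0 to 3, the 3 without Nnmt KO library a (0.963%). No zonation marker had an adjusted p under 0.05 in any fit. Scaling by the hepatocyte markers, chosen after the data were seen, moved the median log2 fold change of all tested genes from 0.02 to 0.21 and gave 1112 genes at an unadjusted p under 0.05 (981 higher, 131 lower) in place of 1925 (834 higher, 1091 lower). Under it and under library size only, Oat was no longer separated by genotype, and its log2 fold change with the hepatocyte markers was -0.06. The log2 fold changes that turned in sign were those of Otc without Nnmt KO library a (range with each library left out -0.38 to 0.025), of Ass1 without Nnmt KO library c, control library c or control library d (-0.082 to 0.30), and of Glul without control library b (-0.0026 to 0.17). The causes were not tested. The other 7 members kept their direction in all 14 alternatives. No paired analysis was possible because the columns of the count table carry no mouse numbers.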
